A study of Mus musculus with 16 samples.

Results

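Hair follicle stem cells (HFSCs) and their progenitor progeny from untreated organoids are described here, from 8 of the 16 libraries of the series: 4 of α6+/CD34+ HFSCs and 4 of α6+/CD34- progenitors. The libraries were chosen by their labels, which give the control treatment, the sorted fraction and the mouse. Epidermal cells of 4 mice of the C57BL/6J strain, titled WT, were kept for 2 weeks in an organoid culture called 3D–3C, a system in which stem cells and progenitors arise together. They were sorted on integrin α6, a receptor for basement membrane laminin, and on CD34, a surface sialomucin. Each mouse gave 1 library of each fraction, so the replicate number stands for an animal. The other 8 libraries hold the same fractions of the same 4 mice after 72 h of N1-acetylspermidine (N1-AcSpd), an acetylated polyamine. They enter the estimate of the spread between libraries and are set beside the untreated cells only at the end. The labels give no age, and the cells were taken from culture, away from the niche that surrounds the follicle in skin.

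HFSCs reside in the bulge, a permanent segment of the hair follicle, where they stay mostly at rest and enter the cycle when a new hair is made. A small set of transcription factors, among them LHX2, SOX9, NFATC1 and TCF7L1, maintains them, and BMP signals keep them quiescent while Wnt signals activate them. Their progeny line the outer root sheath and the inner bulge. Keratinocytes that leave the basal state switch from basal keratins to those of the spinous layer, and later cross-link small proline-rich and late cornified envelope proteins into the cornified envelope that seals the skin.

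Transcripts were tagged near their 3′ end with a random barcode, the UMI, so that copies of a molecule made by PCR count once. Levels are given as CPM, the UMIs of a gene relative to the TMM-scaled total of its library, set to 1000000. As each molecule carries 1 tag, CPM does not grow with transcript length. A gene that overlaps others in the annotation can also hold their reads. The CD34- libraries held 16179323 to 24451336 UMIs and the CD34+ libraries 16928210 to 18329702, with 22142 to 23577 genes detected. Of 19049 genes tested, 6123 (32.1%) differed between the fractions at an adjusted p under 0.05 (edgeR, all 16 libraries in 1 fit), and these are called below. Higher levels in CD34+ cells were called for 3059 genes (16.1%) and lower levels for 3064 (16.1%). The change was at least 2-fold in 565 of the higher and 606 of the lower genes, and at least 4-fold in 122 and 239. Scaling by library totals moved the split to 4862 higher and 1759 lower, because the median log2 fold change of all genes moved from 0.02 to 0.14. List medians below are therefore read against the 0.02 of all genes, and counts of called members against the 16.1% higher and 16.1% lower. The groups did not overlap in 6127 genes (32.2% of those tested), and 5929 of the called genes had the same sign in all 4 mice. The RNA comes from bulk populations, in which fewer cells of a type and less RNA per cell cannot be told apart.

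The markers of the stem cell fraction went with the labels. Cd34 was at 3.05, 3.26, 3.25 and 3.20 CPM in CD34- cells and 49.6, 49.1, 43.4 and 57.8 CPM in CD34+ cells in mice 1 to 4, a difference of 3.97 on the log2 scale (SE 0.12, adjusted p = 1.59e-10). The sort used the CD34 protein, so this checks the labels and is no finding. At chr1:194938819-194961279 (GRCm38), Cd34 overlaps the antisense gene model Gm16897, whose mean was 3.05 ± 0.145 CPM in CD34- and 48.5 ± 5.82 CPM in CD34+ cells (SD, n = 4). The counting is not stated to use strand, so reads of the pair cannot be told apart. Lhx2, a LIM homeodomain factor of the bulge at chr2:38339281-38369733, was low in both fractions and stood at 0.344, 0.256, 0.520 and 0.316 CPM in CD34- cells and 3.13, 2.63, 2.55 and 3.34 CPM in CD34+ cells. Every CD34+ library was therefore above every CD34- library, by 7.92-fold in the fit (log2 2.98, SE 0.22, adjusted p = 6.46e-07).

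Sox9, the HMG factor that specifies the follicle lineage, was at 34.8, 39.9, 30.4 and 34.3 CPM in CD34- cells and 71.3, 70.6, 64.1 and 88.8 CPM in CD34+ cells (log2 1.08, SE 0.14, adjusted p = 6.88e-05). Nfatc1, a factor downstream of BMP signalling that holds HFSCs at rest, was at 5.33, 6.58, 5.85 and 5.60 CPM in CD34- cells and 13.4, 13.8, 13.3 and 13.9 CPM in CD34+ cells (log2 1.22, SE 0.07, adjusted p = 1.75e-07). Sox9 thus rose 2.11-fold and Nfatc1 2.33-fold, and neither gene had a CD34+ library inside the CD34- range. Dkk3, a secreted member of the Dickkopf family, was at 5.08, 5.49, 4.63 and 5.51 CPM in CD34- cells and 21.7, 21.2, 16.4 and 25.03 CPM in CD34+ cells (log2 2.03, SE 0.20, adjusted p = 5.04e-06). All 5 markers of the label were thus higher in CD34+ cells in 4 of 4 mice.

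**Figure D1:**
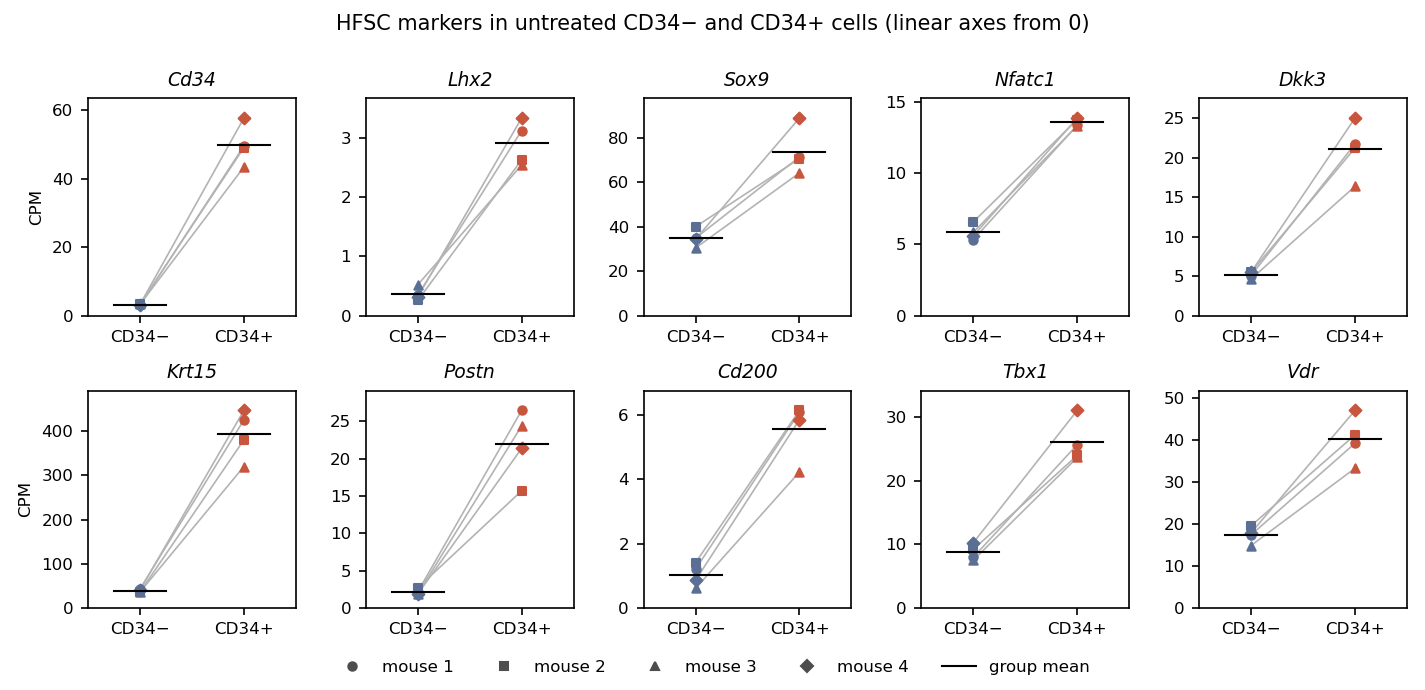
Levels in CPM (linear axes from 0) of 10 HFSC genes in the 4 untreated CD34- and 4 untreated CD34+ libraries, with a grey line joining the fractions of 1 mouse and a black bar at each group mean. All 10 are among the members called higher, and in each the 4 CD34+ libraries sit above the 4 CD34- libraries. Members of the same lists with overlapping groups, such as Tcf7l1, Sox21 and Lgr5, or called lower, Tnc and Itgb6, are not drawn.

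Transcription factors of HFSCs were higher as a group. Of 14 listed factors 12 were called higher and none lower, with a median log2 fold change of 1.06. The largest difference after Lhx2 was that of Tbx1, a T-box factor of the bulge, at 7.96, 9.20, 7.49 and 10.2 CPM in CD34- cells and 25.7, 23.97, 23.6 and 31.04 CPM in CD34+ cells (log2 1.58, SE 0.14, adjusted p = 2.38e-06). Gli2, a transcriptional effector of Hedgehog signalling, was near 0.733 ± 0.0956 CPM in CD34- and 1.98 ± 0.118 CPM in CD34+ cells (SD, n = 4, log2 1.42). Nfib and Vdr, which encode a chromatin regulator of stem cell identity and the vitamin D receptor needed for hair cycling, differed by 2.33-fold and 2.31-fold. Runx1, Foxc1 and Nfix, factors of stem cell activation, quiescence and identity, differed by log2 1.00, 0.96 and 0.78. The members without a call were Tcf7l1, the Wnt pathway repressor, at 2.06, 1.66, 1.69 and 2.39 CPM in CD34- cells and 2.85, 2.19, 2.66 and 3.49 CPM in CD34+ cells (log2 0.52, adjusted p = 0.212), and Sox21 at 2.28, 2.68, 2.34 and 2.12 CPM in CD34- cells and 1.37, 3.40, 2.28 and 2.52 CPM in CD34+ cells (log2 0.02, adjusted p = 0.965). Their groups overlapped, and the sign of Sox21 depended on the libraries used and on the fit.

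Surface and secreted markers of the bulge were divided. Of 20 listed genes 16 could be tested, and 9 were called higher and 2 lower (median log2 1.00). Cd34, the gene of the sort, is 1 of the 9, and without it 8 of 15 were higher and 2 lower (median log2 0.60). Krt15, the keratin of bulge and basal stem cells at chr11:100131758-100135928, was among the most changed and stood at 42.7, 35.7, 36.04 and 40.1 CPM in CD34- cells and 425, 380.2, 319.9 and 447 CPM in CD34+ cells (log2 3.35, SE 0.15, adjusted p = 1.83e-08). Postn at chr3:54361109-54391037, which encodes the matrix protein periostin, was at 2.15, 2.68, 1.86 and 1.85 CPM in CD34- cells and 26.5, 15.7, 24.4 and 21.4 CPM in CD34+ cells (log2 3.37, SE 0.17, adjusted p = 5.01e-08). For both genes the lowest CD34+ library was several times above the highest CD34- library.

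Cd200, an immunoregulatory surface protein of the bulge, was at 1.20, 1.41, 0.606 and 0.857 CPM in CD34- cells and 6.09, 6.14, 4.23 and 5.86 CPM in CD34+ cells (log2 2.46, SE 0.33, adjusted p = 6.96e-05), with mouse 3 lowest in both fractions. Sfrp1, a secreted Wnt inhibitor, rose by 4.17-fold, and Gas1, a membrane protein that binds Hedgehog ligands, by 2.63-fold. Lgr5, the R-spondin receptor of cycling follicle stem cells, was at 3.79, 4.41, 5.50 and 5.19 CPM in CD34- cells and 4.61, 5.05, 4.99 and 5.91 CPM in CD34+ cells, with overlapping groups (log2 0.12, adjusted p = 0.949). The bulge genes called lower were Tnc, a matrix glycoprotein, and Itgb6, an integrin subunit. Neither of these calls was made when libraries were scaled by their totals, under which 10 were called higher and 0 lower.

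By rule, the 15 largest increases were taken among called genes with a mean of 10 CPM or more over the 8 libraries, which leaves out larger changes of scarcer genes. The rule also left out genes with another tested gene within 10% of their counts in each library. Of 2161 genes that met the other conditions, in either direction, that step left 698. Beside Cd34, Krt15, Postn and Dkk3 the 15 increases include secreted proteins. Pip, prolactin-induced protein, was at 11.7, 11.5, 10.1 and 10.1 CPM in CD34- cells and 135, 122, 100.2 and 100.01 CPM in CD34+ cells (log2 3.40, SE 0.10, adjusted p = 1.59e-10). Ttr, the thyroid hormone and retinol carrier transthyretin, was at 5.03, 4.15, 4.59 and 4.33 CPM in CD34- cells and 59.6, 41.6, 47.1 and 42.4 CPM in CD34+ cells (log2 3.39, SE 0.16, adjusted p = 3.19e-08). Apoe, the lipid carrier apolipoprotein E, was the most abundant of the 15 at 144, 144, 103 and 109 CPM in CD34- cells and 577, 463, 487 and 543 CPM in CD34+ cells (log2 2.05, SE 0.15, adjusted p = 7.85e-07). In all 3 genes the groups were far apart compared with the spread among mice, but the rule had required groups that do not overlap. Thbs1, the matrix glycoprotein thrombospondin 1, was at 5.51, 5.49, 5.72 and 5.82 CPM in CD34- cells and 27.6, 28.1, 23.4 and 38.3 CPM in CD34+ cells (log2 2.38, SE 0.23, adjusted p = 3.59e-06), and Nbl1, a secreted BMP antagonist, was at 8.82, 10.03, 4.11 and 6.90 CPM in CD34- cells and 32.04, 34.1, 22.99 and 32.99 CPM in CD34+ cells (log2 2.03, SE 0.24, adjusted p = 1.95e-05). Mouse 4 was highest among CD34+ libraries for Thbs1, and mouse 3 lowest in both fractions for Nbl1.

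The others act inside the cell or at the membrane. Crip1, a small LIM domain protein, rose by 5.85-fold from 6.59 ± 0.951 to 38.6 ± 7.07 CPM (SD, n = 4). Sgk1, a serum and glucocorticoid regulated kinase, was at 69.8, 94.9, 67.4 and 84.1 CPM in CD34- cells and 246, 311, 234 and 312 CPM in CD34+ cells (log2 1.80, SE 0.17, adjusted p = 2.76e-06). Pik3r1, the regulatory subunit of phosphoinositide 3-kinase, rose by 3.96-fold, Hsd17b11, a steroid and lipid droplet dehydrogenase, by 3.76-fold, and Samd5, a SAM domain protein, by 3.44-fold. Tenm4, a teneurin adhesion protein, was less certain, with 14.7, 87.01, 15.4 and 15.7 CPM in CD34- cells and 131, 107, 143 and 95.2 CPM in CD34+ cells. Mouse 2 stood at 87.0 CPM in the CD34- fraction, close to the CD34+ libraries, while the other CD34- libraries stayed at 14.7 to 15.7 CPM. Its difference of log2 1.84 (adjusted p = 0.0331) was log2 2.96 without that library, and the call was lost at log2 1.60, 1.61 and 1.61 without the CD34- library of mouse 1, 3 or 4, at 1.79 and 1.73 without the CD34+ library of mouse 1 or 3, and at 1.55, 1.50 and 1.70 without mouse 1, 3 or 4. It was also lost when the untreated libraries were fitted alone (log2 1.84, adjusted p = 0.0672).

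**Figure D2:**
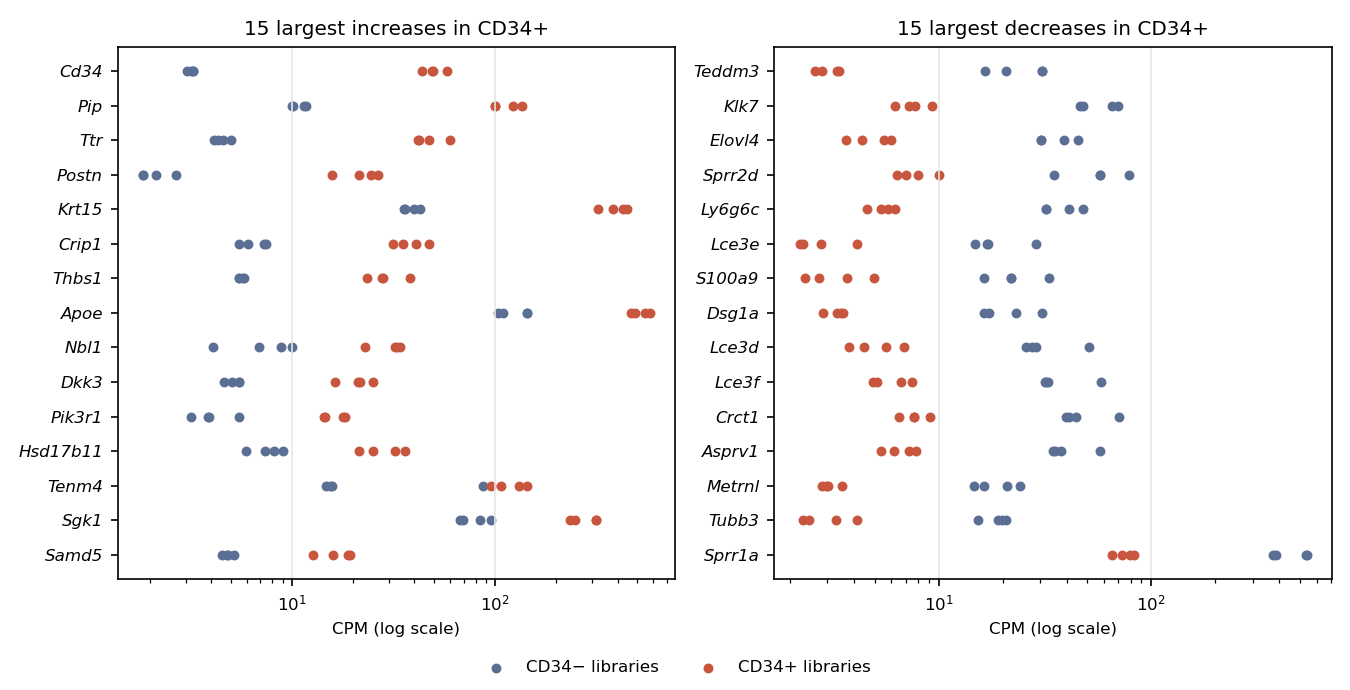
CPM (log scale) of the 15 largest increases (left) and the 15 largest decreases (right) in CD34+ cells, with 1 point per library, blue for the 4 CD34- and red for the 4 CD34+ libraries. The rule that chose the 30 genes required groups that do not overlap. The CD34- library of mouse 2 reaches 87.0 CPM for Tenm4.

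The 15 largest decreases in CD34+ cells by the same rule were mostly genes of the differentiating epidermis. Sprr1a at chr3:92483952-92485895, a small proline-rich cornified envelope protein, was the most abundant of them, with 374, 385, 538 and 534 CPM in CD34- cells and 65.3, 79.7, 82.7 and 72.5 CPM in CD34+ cells (log2 -2.61, SE 0.20, adjusted p = 7.69e-07). Klk7 at chr7:43811294-43816359, a kallikrein protease that cuts the junctions of shedding cornified cells, was at 48.01, 46.4, 69.6 and 65.5 CPM in CD34- cells and 7.28, 7.74, 9.33 and 6.22 CPM in CD34+ cells (log2 -2.91, SE 0.23, adjusted p = 1.14e-06). Elovl4, which elongates the very long fatty acids of barrier ceramides, was at 30.2, 30.2, 38.8 and 45.1 CPM in CD34- cells and 4.38, 5.98, 5.53 and 3.65 CPM in CD34+ cells (log2 -2.88, SE 0.22, adjusted p = 7.87e-07). In each of these genes the highest CD34+ library was several times below the lowest CD34- library. The rule that chose them required groups that do not overlap.

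Sprr2d, of the same family as Sprr1a, was at 57.3, 34.9, 78.9 and 57.6 CPM in CD34- cells and 7.97, 7.02, 10.03 and 6.37 CPM in CD34+ cells (log2 -2.86, SE 0.32, adjusted p = 1.55e-05). The late cornified envelope genes Lce3d, Lce3e and Lce3f were 6.40, 6.77 and 6.38-fold lower, and their neighbour Crct1 was 6.30-fold lower. Asprv1, the protease that processes filaggrin, was 6.21-fold lower. In Asprv1, Crct1 and the 3 Lce3 genes the CD34- library of mouse 3 was the highest of its group. Dsg1a, the desmosomal cadherin of suprabasal layers, was at 17.3, 16.4, 23.1 and 30.7 CPM in CD34- cells and 2.85, 3.57, 3.47 and 3.34 CPM in CD34+ cells (log2 -2.72, SE 0.21, adjusted p = 9.44e-07). S100a9, a subunit of the antimicrobial protein calprotectin, was at 21.9, 16.4, 33.1 and 21.98 CPM in CD34- cells and 3.70, 2.74, 4.99 and 2.36 CPM in CD34+ cells (log2 -2.76, SE 0.31, adjusted p = 1.73e-05). Ly6g6c, a GPI-anchored Ly6 protein, and Metrnl, a secreted meteorin-like protein, fell 6.96-fold and 6.17-fold. The list also holds Teddm3, with the largest fall of these 15 (log2 -3.01), and Tubb3, a β-tubulin (log2 -2.62). Tubb3 lies within the long gene model Gm20388, so its reads may be shared with it.

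Spinous layer genes were lower in CD34+ cells. Of 13 tested, 12 were called lower and none higher (median log2 -1.47). Krtdap, a secreted protein of stratifying keratinocytes, was at 661, 617, 857 and 949 CPM in CD34- cells and 138, 145, 164 and 143 CPM in CD34+ cells (log2 -2.38, SE 0.16, adjusted p = 4.71e-07). Ly6d, a GPI-anchored surface protein, was at 579, 552, 653 and 685 CPM in CD34- cells and 117, 119, 152 and 98.7 CPM in CD34+ cells (log2 -2.34, SE 0.18, adjusted p = 7.69e-07). Krt1, the type II keratin of the spinous layer, was low in both fractions and stood at 1.76, 1.60, 1.34 and 1.90 CPM in CD34- cells and 0.228, 0.219, 0.380 and 0.206 CPM in CD34+ cells (log2 -2.65, SE 0.45, adjusted p = 4.68e-04). Its partner Krt10 changed less, from 14.3 ± 1.91 to 8.99 ± 0.735 CPM (SD, n = 4, log2 -0.67). Notch3, a receptor of the pathway that drives spinous fate, fell by 1.27 on the log2 scale.

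The cornified envelope list moved most. Of 48 listed genes 43 were tested, 39 were called lower and none higher, and the median log2 fold change was -2.53. Ivl, the early scaffold protein involucrin, was at 26.5, 30.3, 37.3 and 31.5 CPM in CD34- cells and 8.59, 10.3, 9.43 and 8.99 CPM in CD34+ cells (log2 -1.75, SE 0.14, adjusted p = 1.09e-06). Evpl, the plakin envoplakin that links the envelope to desmosomes, fell by 1.80 on the log2 scale. Flg, which encodes filaggrin, the protein that bundles keratin in the granular layer, fell less, at 26.2, 26.4, 30.3 and 25.6 CPM in CD34- cells and 17.6, 16.95, 17.8 and 15.3 CPM in CD34+ cells (log2 -0.68, SE 0.10, adjusted p = 1.98e-04). Members without a call were Sprr2a1, Sprr2a2, Sprr2a3 and Sprr2b. The Sprr2a genes are near-identical copies, and Sprr2a1 overlaps Sprr2a2 in the annotation, so their counts of 6024 ± 309.5 and 6089.7 ± 289 CPM in CD34- cells and 5521 ± 277 and 5553 ± 288 CPM in CD34+ cells (SD, n = 4) are uncertain. Sprr2b was at 206, 174, 205 and 209 CPM in CD34- cells and 165, 179.7, 169.6 and 164 CPM in CD34+ cells (log2 -0.23, adjusted p = 0.105). Lce1j had 26, 34, 78 and 0 UMIs in the CD34- libraries and 0 in all 4 CD34+ libraries. Against a limit of 3 counts over the CD34+ group, the CD34- mean of 1.67 CPM was at least 41.0-fold higher. This covers counting error in the CD34+ group only, and it does not hold in mouse 4, with 0 UMIs in both fractions. The call of Lce1j was lost with mouse as a block (adjusted p = 0.0519), with untreated libraries only (adjusted p = 0.0583) and with both (adjusted p = 0.0530). It was also lost without the CD34- library of mouse 3, any CD34+ library, or mouse 1, 2 or 3.

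Most of these envelope genes lie together in the epidermal differentiation complex of chromosome 3, and their promoters are shown because the genes moved together. Promoter sequences were taken from RefSeq on GRCm38.p6, 250 bases before to 50 after the start. Capitals mark TATAAA, the TATA box, TGANTCA, the AP-1 motif, and GGGCGG, the core of the Sp1 motif, searched on both strands. Sprr1a and Sprr2d are envelope genes that hold both TATAAA and TGANTCA, as do 13 of the 37 envelope genes with a promoter. Lhx2 and Postn are genes that were higher in CD34+ cells.
Sprr1a (chr3:92485832-92486131, minus strand): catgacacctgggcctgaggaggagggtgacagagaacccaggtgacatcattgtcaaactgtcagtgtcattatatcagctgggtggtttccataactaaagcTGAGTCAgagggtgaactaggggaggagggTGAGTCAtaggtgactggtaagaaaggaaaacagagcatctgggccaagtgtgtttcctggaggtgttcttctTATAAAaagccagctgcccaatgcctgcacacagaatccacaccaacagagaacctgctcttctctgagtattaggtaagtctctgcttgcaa
Sprr2d (chr3:92338890-92339189, plus strand): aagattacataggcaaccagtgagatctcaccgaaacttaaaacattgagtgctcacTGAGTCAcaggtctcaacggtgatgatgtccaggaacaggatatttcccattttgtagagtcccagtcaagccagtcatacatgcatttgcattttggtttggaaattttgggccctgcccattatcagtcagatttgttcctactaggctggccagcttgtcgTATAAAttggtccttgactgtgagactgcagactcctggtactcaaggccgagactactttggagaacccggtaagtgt
Lhx2 (chr2:38339031-38339330, plus strand): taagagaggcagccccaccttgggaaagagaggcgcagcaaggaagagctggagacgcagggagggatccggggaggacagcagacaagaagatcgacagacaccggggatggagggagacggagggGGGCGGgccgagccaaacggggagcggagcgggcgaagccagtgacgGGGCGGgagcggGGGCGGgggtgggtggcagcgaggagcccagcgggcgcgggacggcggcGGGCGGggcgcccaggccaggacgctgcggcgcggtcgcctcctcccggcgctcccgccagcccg
Postn (chr3:54360857-54361156, plus strand): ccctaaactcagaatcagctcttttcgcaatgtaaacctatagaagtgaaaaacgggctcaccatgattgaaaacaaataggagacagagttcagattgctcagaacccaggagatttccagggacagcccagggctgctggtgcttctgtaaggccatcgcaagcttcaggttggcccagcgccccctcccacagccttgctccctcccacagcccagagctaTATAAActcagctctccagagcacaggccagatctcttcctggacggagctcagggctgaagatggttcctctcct

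In this window Sprr1a has TATAAA at -43 and TGANTCA at -146 and -116 from the start, and Sprr2d has TATAAA at -29 and TGANTCA at -193. Lce3e, not printed, has no TGANTCA, and its TATAAA is at -243. Lhx2 has 4 matches to GGGCGG and none to the other motifs, and Postn has TATAAA at -26. Among 37 cornified envelope genes with a promoter, TATAAA was found in 16 (43.2%), TGANTCA in 13 (35.1%) and GGGCGG in 2 (5.41%). Among the 10956 tested genes with a promoter these shares were 7.83%, 5.25% and 61.8%, and among all 27025 RefSeq promoters they were 14.1%, 7.87% and 36.0%. Of 11 HFSC transcription factors with a promoter, 0 held TATAAA, 1 TGANTCA and 7 (63.6%) GGGCGG. The motifs did not follow the fall in every lowered list. Of 21 barrier enzyme and protease genes with a promoter, 2 (9.52%) held TATAAA, 0 TGANTCA and 10 (47.6%) GGGCGG. Of 7 spinous layer genes with a promoter, 2 held TATAAA, 3 TGANTCA and 3 GGGCGG. For called genes at least 2-fold lower the shares were 20.9%, 19.3% and 36.8% of 326, and for those at least 2-fold higher 8.44%, 7.92% and 54.9% of 379. The envelope genes are paralogs that share sequence, and a match describes the letters only.

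Barrier enzymes and proteases were lower with the envelope. Of 24 tested, 22 were called lower and none higher (median log2 -2.28). Klk5, the kallikrein that activates Klk7, was at 10.2, 7.54, 14.3 and 12.1 CPM in CD34- cells and 1.14, 1.59, 1.52 and 1.03 CPM in CD34+ cells (log2 -3.06, SE 0.35, adjusted p = 1.62e-05). Spink5, which encodes the inhibitor of these kallikreins, was at 84.7, 65.1, 95.7 and 92.3 CPM in CD34- cells and 20.9, 12.6, 24.7 and 12.4 CPM in CD34+ cells (log2 -2.26, SE 0.26, adjusted p = 2.09e-05). Protease and inhibitor therefore fell together, by 8.35-fold and 4.79-fold. Casp14, the caspase of cornification, fell 4.91-fold. Of the barrier lipid genes, Alox12b, a lipoxygenase that acts on linoleoyl ceramide, fell 6.38-fold, Cers3, a ceramide synthase, 3.51-fold, and Abca12, the lipid transporter of lamellar granules, 2.77-fold.

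Transcription factors of epidermal differentiation followed: 14 of 19 were called lower and 2 higher (median log2 -1.01). Grhl3, a grainyhead factor of barrier formation, was at 5.55, 6.01, 7.32 and 6.99 CPM in CD34- cells and 1.37, 1.15, 0.976 and 1.28 CPM in CD34+ cells (log2 -2.43, SE 0.18, adjusted p = 8.05e-07). Zfp750, a zinc finger factor of terminal differentiation, was at 8.04, 9.58, 11.2 and 13.7 CPM in CD34- cells and 2.33, 1.98, 3.31 and 1.70 CPM in CD34+ cells (log2 -2.19, SE 0.23, adjusted p = 7.44e-06). Prdm1, the repressor BLIMP1, fell by 2.01, Ovol1, which drives exit from the progenitor state, by 1.67, and Klf4, a barrier factor, by 1.01 on the log2 scale. Ovol2, the paralog of Ovol1, went the other way, at 1.38, 0.894, 1.52 and 1.13 CPM in CD34- cells and 2.56, 2.25, 2.11 and 2.62 CPM in CD34+ cells (log2 0.95, SE 0.21, adjusted p = 0.00304).

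Of 18 desmosome and tight junction genes, 14 were called lower and 1 higher (median log2 -0.43). Cldn1, the main claudin of the epidermal tight junction, was at 16.7, 17.3, 19.8 and 20.8 CPM in CD34- cells and 7.68, 6.58, 6.72 and 6.37 CPM in CD34+ cells (log2 -1.45, SE 0.07, adjusted p = 5.85e-08), and Cldn4 fell 4.74-fold. Dsg2, the desmoglein of basal and simple epithelial cells, was the member called higher, at 3.87, 5.11, 3.42 and 4.74 CPM in CD34- cells and 6.54, 8.45, 7.48 and 8.33 CPM in CD34+ cells (log2 0.85, SE 0.12, adjusted p = 1.14e-04).

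**Figure D3:**
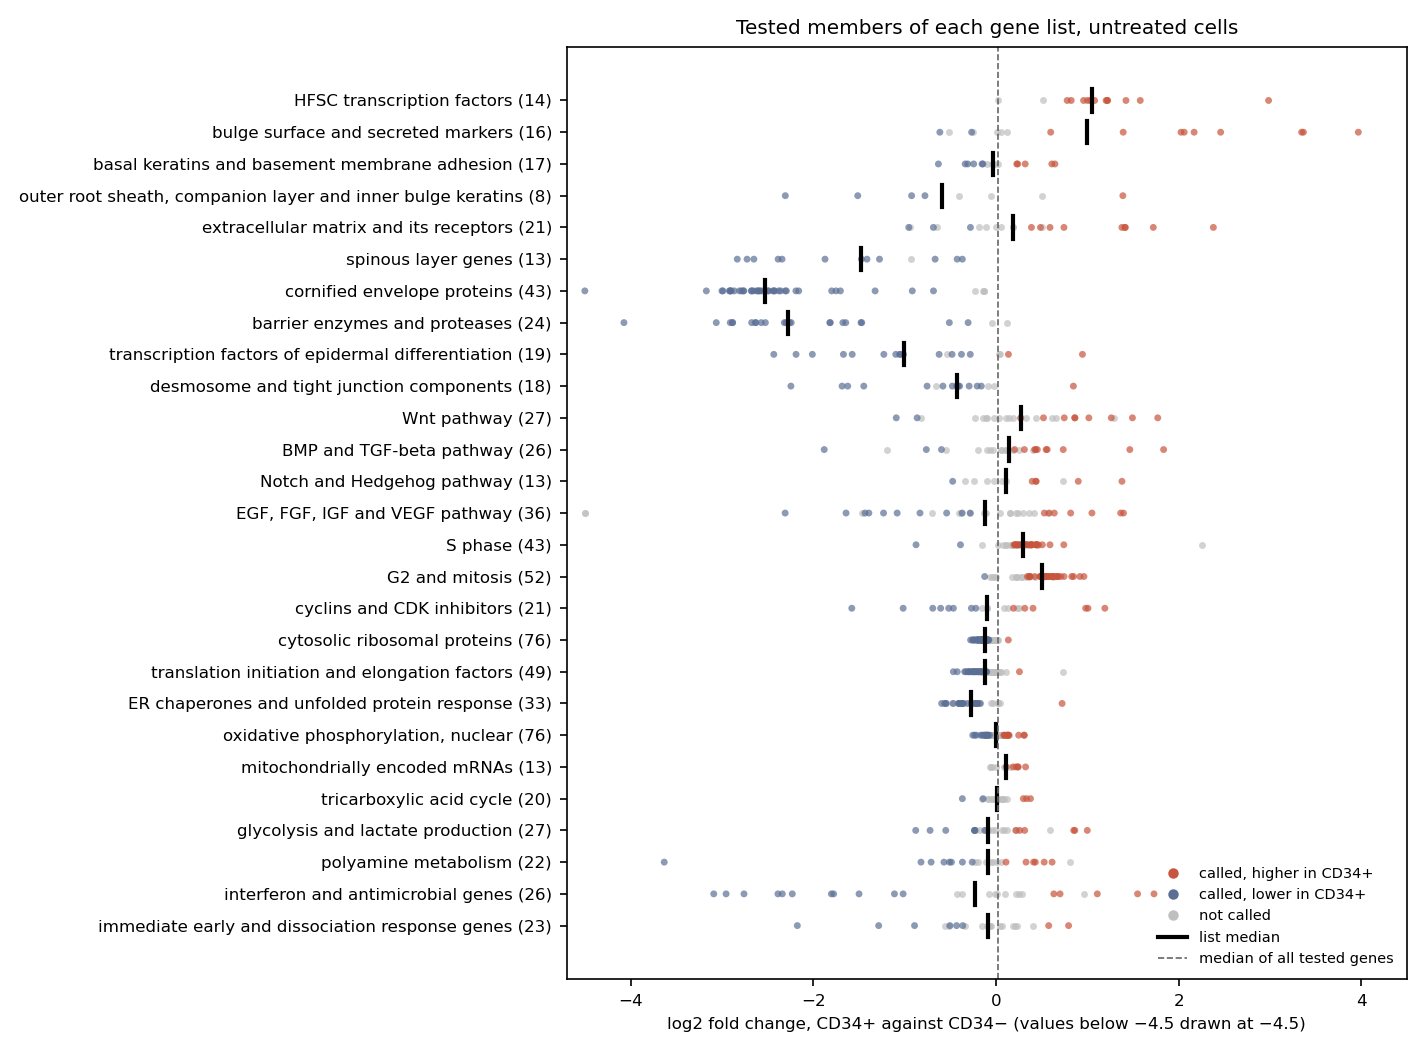
Log2 fold changes (CD34+ against CD34-, untreated) of the tested members of 27 gene lists, 1 row per list with the number tested in brackets. Red and blue points are called higher and lower, grey points are not called, black bars are list medians, and the dashed line is the median of all tested genes. Envelope and barrier genes lie far to the left, HFSC transcription factors to the right, and ribosomal and mitochondrial genes close to the dashed line.

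Genes of the basal state did not move as a group. Of 17 basal keratin and basement membrane genes, 5 were called higher and 6 lower (median log2 -0.03), against 5 and 3 with library totals. Krt14, the main basal keratin, was at 5194, 5528, 5226 and 5559.7 CPM in CD34- cells and 4669.9, 5202, 4601 and 5013 CPM in CD34+ cells. Its small difference (log2 -0.14, adjusted p = 0.0365) was lost without the CD34- library of mouse 2 or 4, without the CD34+ library of mouse 1 or 3 and without any single mouse, at log2 -0.12 to -0.16, and was -0.03 with library totals. It was lower in 4 of 4 mice, and with mouse as a block the adjusted p was 5.80e-04. Its partner Krt5 had overlapping groups, at 1197, 1229, 1149 and 1081 CPM in CD34- cells and 1093, 1197, 1022 and 1044 CPM in CD34+ cells (log2 -0.10, adjusted p = 0.431; log2 0.018 with library totals). Trp63, the master factor of stratified epithelium, was higher at 71.2, 76.5, 73.5 and 75.7 CPM in CD34- cells and 86.9, 96.7, 86.3 and 101 CPM in CD34+ cells (log2 0.32, SE 0.06, adjusted p = 0.00102). The anchoring proteins Col7a1 and Col17a1 were higher by 1.56-fold and 1.18-fold. Itga6, whose protein was the other sort gate, was lower at 63.3, 58.1, 60.9 and 68.9 CPM in CD34- cells and 45.9, 49.5, 52.98 and 50.6 CPM in CD34+ cells (log2 -0.34, SE 0.06, adjusted p = 9.01e-04).

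Of 8 tested keratins and markers of the outer root sheath, companion layer and inner bulge, 4 were called lower and 1 higher (median log2 -0.59). Krt6a, a keratin of the companion layer and of the inner bulge, was at 3058, 3687, 3318 and 3692 CPM in CD34- cells and 1671, 2039.96, 1719.95 and 1824 CPM in CD34+ cells (log2 -0.92, SE 0.08, adjusted p = 1.55e-06). Krt6b was at 509.5, 539.8, 637 and 758 CPM in CD34- cells and 115, 133, 135 and 112 CPM in CD34+ cells (log2 -2.31, SE 0.16, adjusted p = 4.73e-07), and Krt16 at 685, 767, 793 and 942 CPM in CD34- cells and 258, 307, 282 and 270.02 CPM in CD34+ cells (log2 -1.51, SE 0.10, adjusted p = 4.71e-07). Krt17 fell by 0.78 on the log2 scale. These keratins are also those of wounded and cultured epidermis. Barx2, a homeobox factor, was the member called higher (2.62-fold).

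Extracellular matrix genes were mixed, with 9 of 21 called higher and 3 lower (median log2 0.19). Relative to all genes the median was 0.16, and it moved to 0.26 without the CD34- library of mouse 1 and to 0.32 without the CD34+ library of mouse 2. The type IV collagen genes of the basement membrane were low and higher in CD34+ cells. Col4a1 was at 0.774, 1.15, 0.823 and 0.496 CPM in CD34- cells and 2.62, 2.03, 1.52 and 2.47 CPM in CD34+ cells (log2 1.42, SE 0.29, adjusted p = 0.00186) and Col4a2 at 0.473, 0.383, 0.390 and 0.677 CPM in CD34- cells and 1.99, 1.65, 1.25 and 1.54 CPM in CD34+ cells (log2 1.72, SE 0.27, adjusted p = 2.75e-04). Col4a5 rose 2.60-fold, and Col12a1, a fibril-associated collagen, was at 20.2, 16.2, 16.2 and 17.4 CPM in CD34- cells and 48.6, 37.4, 48.7 and 51.6 CPM in CD34+ cells (log2 1.41, SE 0.12, adjusted p = 1.38e-06). Fn1, fibronectin, went the opposite way at 42.6, 42.2, 47.5 and 46.4 CPM in CD34- cells and 23.5, 23.3, 25.8 and 19.6 CPM in CD34+ cells (log2 -0.95, SE 0.08, adjusted p = 1.95e-06).

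In the Wnt pathway, 9 of 27 tested genes were called higher and 2 lower (median log2 0.27). Of the 9 higher members 6 were receptor genes, and both lower members were ligand genes. Of all tested genes 16.1% were called higher and 16.1% lower, and a split between receptors and ligands was not tested. The Frizzled receptor gene Fzd2 was at 3.48, 3.96, 3.59 and 3.25 CPM in CD34- cells and 13.4, 10.5, 10.5 and 14.3 CPM in CD34+ cells (log2 1.77, SE 0.17, adjusted p = 3.92e-06), and Fzd7 was at 2.67, 1.79, 1.56 and 1.99 CPM in CD34- cells and 6.83, 4.61, 5.69 and 5.50 CPM in CD34+ cells (log2 1.49, SE 0.16, adjusted p = 9.66e-06). Fzd1 and Lgr4, an R-spondin receptor, rose 2.02-fold and 2.40-fold. The ligand gene Wnt4 was at 19.6, 19.3, 23.6 and 23.6 CPM in CD34- cells and 10.2, 10.3, 13.4 and 13.4 CPM in CD34+ cells (log2 -0.86, SE 0.12, adjusted p = 8.53e-05), and Wnt7b fell 2.13-fold. Of the targets, Axin2 was below the count minimum and was not tested. With library totals 14 members were called higher and 2 lower.

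In the BMP and TGF-β pathway 10 of 26 genes were called higher and 3 lower (median log2 0.14). Targets were among the former. Id4, an inhibitor of basic helix-loop-helix factors induced by BMP, was at 1.55, 3.07, 1.82 and 2.03 CPM in CD34- cells and 8.02, 7.02, 6.34 and 8.63 CPM in CD34+ cells (log2 1.84, SE 0.19, adjusted p = 8.67e-06), and Id2 was at 16.3, 19.1, 16.98 and 21.3 CPM in CD34- cells and 28.6, 29.95, 26.03 and 38.1 CPM in CD34+ cells (log2 0.74, SE 0.17, adjusted p = 0.00409). Smad6, the inhibitory SMAD that feeds back on the pathway, rose 2.76-fold. Id1 and Smad7 were not called. Of the ligand genes, Bmp2 was low in both fractions and lower in CD34+ cells, at 0.559, 0.319, 0.606 and 0.361 CPM in CD34- cells and 0.114, 0.110, 0.108 and 0.154 CPM in CD34+ cells (log2 -1.88, SE 0.33, adjusted p = 7.02e-04), and Tgfb1 fell 1.70-fold. In the Notch and Hedgehog list 5 of 13 were called higher and 1 lower (median log2 0.11). Boc, a Hedgehog co-receptor like Gas1, was at 1.33, 1.85, 1.65 and 1.40 CPM in CD34- cells and 4.72, 3.35, 4.18 and 3.96 CPM in CD34+ cells (log2 1.38, SE 0.22, adjusted p = 3.51e-04), and the Notch ligand gene Dll1 rose 1.36-fold.

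Growth factor genes went both ways. Of 36 tested in the EGF, FGF, IGF and VEGF list, 7 were called higher and 10 lower (median log2 -0.12). Of all tested genes, 16.1% were called higher and 16.1% lower. Of the EGF family ligand genes, Epgn, Areg, Hbegf, Tgfa and Nrg1 were called lower, and Ereg and Btc were not called. Epgn, epigen, was at 25.7, 25.8, 29.3 and 31.4 CPM in CD34- cells and 9.79, 9.55, 11.7 and 10.5 CPM in CD34+ cells (log2 -1.43, SE 0.10, adjusted p = 5.84e-07), Areg, amphiregulin, was at 14.4, 11.3, 15.3 and 13.8 CPM in CD34- cells and 7.34, 4.66, 6.83 and 4.52 CPM in CD34+ cells (log2 -1.23, SE 0.17, adjusted p = 9.31e-05), and Hbegf fell 2.12-fold. Dusp6, a phosphatase of ERK that FGF signalling induces, was higher at 9.51, 11.6, 9.05 and 10.2 CPM in CD34- cells and 26.01, 28.3, 20.98 and 28.7 CPM in CD34+ cells (log2 1.37, SE 0.12, adjusted p = 1.99e-06), and Fgfr1 rose 2.07-fold. Dusp5, another ERK phosphatase, fell 3.12-fold. The IGF binding protein genes Igfbp2 and Igfbp3 fell 4.95-fold and 2.62-fold. Fgf5 and Igf1 had no UMI in any CD34+ library, but they had UMIs in only 2 and 1 of the CD34- libraries and were not called.

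Genes of proliferation were modestly higher in CD34+ cells. In the S phase list 28 of 43 were called higher and 2 lower (median log2 0.30). In the G2 and mitosis list 36 of 52 were called higher and 1 lower (median log2 0.51). Top2a, topoisomerase IIα, was at 29.1, 23.96, 24.8 and 28.9 CPM in CD34- cells and 57.3, 40.8, 50.97 and 40.9 CPM in CD34+ cells (log2 0.83, SE 0.13, adjusted p = 3.60e-04). Hmgb2, a chromatin protein of dividing cells, was at 626, 572, 569.9 and 589.9 CPM in CD34- cells and 1099.8, 1012, 1108 and 1028 CPM in CD34+ cells (log2 0.85, SE 0.10, adjusted p = 2.12e-05). Mki67 was at 20.7, 17.1, 18.7 and 19.4 CPM in CD34- cells and 36.8, 23.3, 32.2 and 24.6 CPM in CD34+ cells (log2 0.62, SE 0.17, adjusted p = 0.0119), and its call was lost without mouse 1 (log2 0.54) or mouse 3 (log2 0.56). The CD34+ libraries of mice 1 and 3 were the higher ones for Mki67 and Top2a, while every CD34+ library was above every CD34- library for all 3 genes.

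Nusap1, a spindle protein, rose 1.95-fold, Cdk1, the mitotic kinase, 1.45-fold, and Birc5, survivin, 1.46-fold. Of the replication genes, Mcm6, a helicase subunit, was at 36.3, 37.2, 35.2 and 38.6 CPM in CD34- cells and 49.4, 50.03, 48.1 and 53.5 CPM in CD34+ cells (log2 0.45, SE 0.04, adjusted p = 4.30e-06), and Pcna, the polymerase clamp, was at 64.2, 62.1, 62.02 and 63.7 CPM in CD34- cells and 80.8, 82.8, 78.6 and 78.3 CPM in CD34+ cells (log2 0.35, SE 0.05, adjusted p = 1.07e-04). These changes were smaller, and the mice were closer to each other. Per mouse, the median over the mitotic list, relative to all genes, was 0.61, 0.31, 0.62 and 0.28 on the log2 scale in mice 1 to 4. Pola1, a polymerase subunit, was lower (1.83-fold). It overlaps the antisense gene model Gm14780, with which its reads cannot be told apart.

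Cyclins and inhibitors did not follow the replication genes. Of 21 tested, 6 were called higher and 8 lower (median log2 -0.09). The inhibitor gene Cdkn1b, p27, was at 4.47, 3.77, 3.77 and 4.92 CPM in CD34- cells and 8.54, 8.23, 9.33 and 8.02 CPM in CD34+ cells (log2 1.01, SE 0.11, adjusted p = 1.72e-05). Cdkn2d, p19, was at 8.90, 7.03, 6.80 and 8.93 CPM in CD34- cells and 20.6, 16.5, 18.5 and 16.9 CPM in CD34+ cells (log2 1.19, SE 0.12, adjusted p = 6.23e-06), and Cdkn2c, p18, was 1.98-fold higher. The inhibitor gene Cdkn1a, p21, was lower at 93.95, 113, 93.5 and 105 CPM in CD34- cells and 66.4, 71.4, 59.9 and 68.8 CPM in CD34+ cells (log2 -0.61, SE 0.08, adjusted p = 7.16e-05). Of the G1 genes, Ccnd1 fell 1.38-fold, Ccnd3 1.43-fold and Cdk6 1.62-fold. Mxd1, which antagonises MYC in differentiating cells, fell 2.99-fold.

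**Figure D4:**
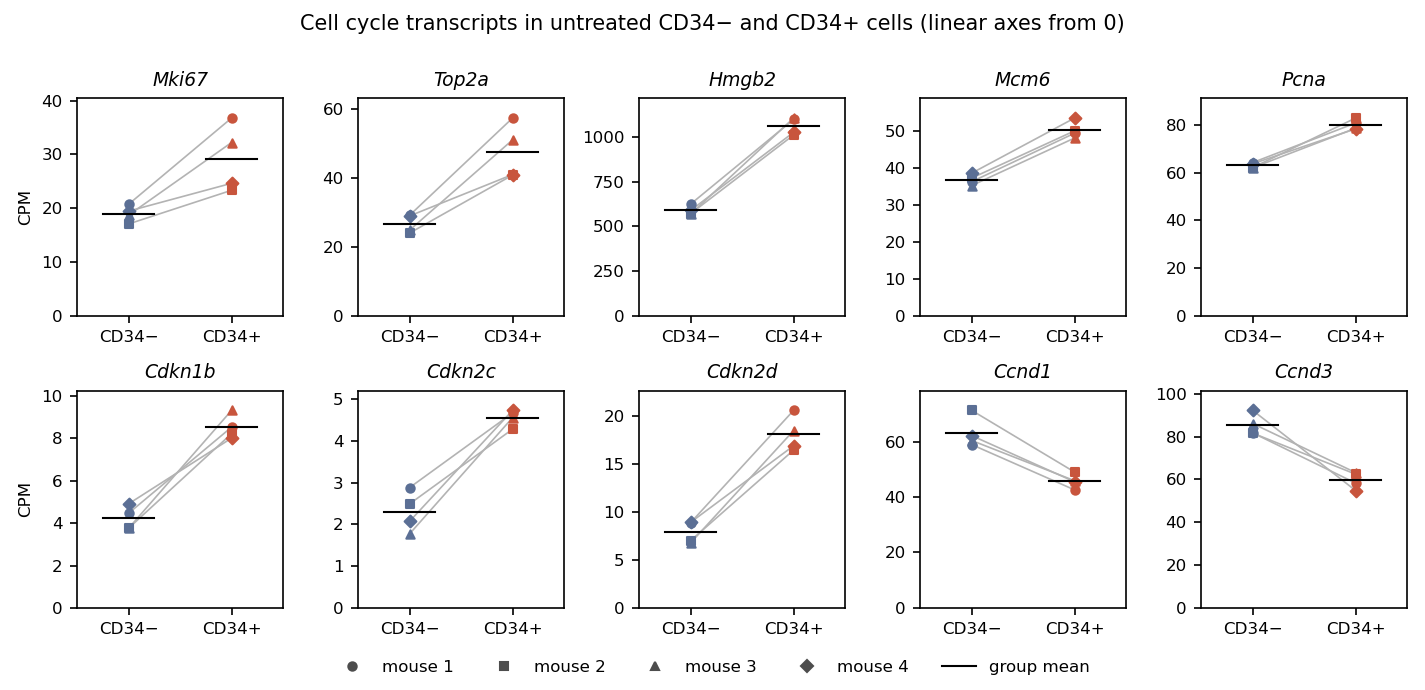
CPM (linear axes from 0) of 10 cell cycle genes in the untreated CD34- and CD34+ libraries, with a grey line joining the fractions of 1 mouse and a black bar at each group mean. Mki67 to Cdkn2d are higher in each CD34+ library, with mice 1 and 3 highest for Mki67 and Top2a, and Ccnd1 and Ccnd3 are lower in each.

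Genes of protein synthesis were slightly lower in CD34+ cells. Of 76 cytosolic ribosomal protein genes, 44 were called lower and 1 higher, with a median log2 fold change of -0.12. The members ranged from -0.28 to 0.14. Rplp1, a stalk protein, was at 2256, 2182, 2237 and 2053 CPM in CD34- cells and 1948, 1797, 1907 and 1696 CPM in CD34+ cells (log2 -0.25, SE 0.06, adjusted p = 0.00474), and lost its call with library totals (log2 -0.13). Rpl30 was at 831, 821, 816 and 836 CPM in CD34- cells and 730.01, 697, 706 and 664 CPM in CD34+ cells (log2 -0.24, SE 0.04, adjusted p = 3.12e-04). Relative to all genes the median of the list was -0.14, and in single mice it was -0.12, -0.12, -0.12 and -0.14. With library totals 6 members were called lower and 8 higher, while the median relative to all genes stayed at -0.14.

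Of 49 translation factors, 27 were called lower and 1 higher (median log2 -0.12), against 11 and 4 with library totals. Eif6, which keeps the large ribosomal subunit apart and acts in its maturation, was at 227, 253, 232 and 235 CPM in CD34- cells and 169, 182, 167 and 167 CPM in CD34+ cells (log2 -0.47, SE 0.05, adjusted p = 5.32e-06). Eif5a, the factor that carries the spermidine-derived residue hypusine, was at 457, 472, 473 and 476 CPM in CD34- cells and 372, 390.2, 384 and 372 CPM in CD34+ cells (log2 -0.31, SE 0.03, adjusted p = 9.56e-06). ER chaperone and unfolded protein response genes fell further: 20 of 33 were called lower and 1 higher (median log2 -0.27), against 12 and 1 with library totals. Hspa5, the chaperone BiP, was at 187, 158, 193 and 188 CPM in CD34- cells and 122, 111, 136 and 112 CPM in CD34+ cells (log2 -0.59, SE 0.09, adjusted p = 2.77e-04). Manf, a secreted ER stress protein, was at 152, 127, 167 and 156 CPM in CD34- cells and 111, 93.9, 112 and 96.4 CPM in CD34+ cells (log2 -0.54, SE 0.08, adjusted p = 2.26e-04). Creld2, an ER stress gene, fell 1.46-fold, and Xbp1, a transcription factor of the response, 1.29-fold.

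**Figure D5:**
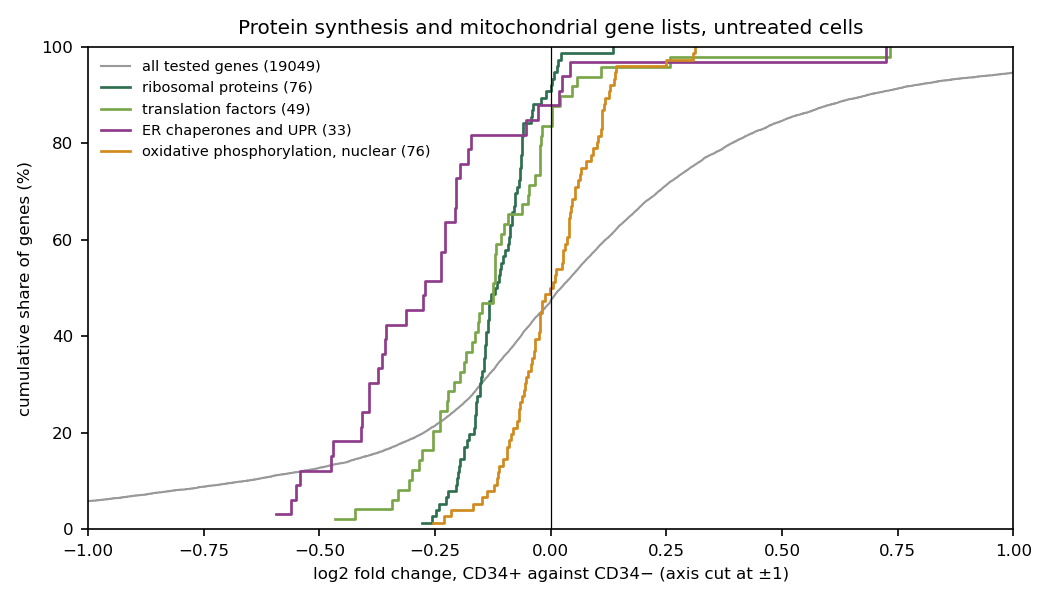
Cumulative share of genes (%) by log2 fold change (CD34+ against CD34-, untreated, axis limited to -1 to 1) for 4 gene lists and all 19049 tested genes. The ribosomal, translation factor and ER curves lie left of 0 over most of their range, and the oxidative phosphorylation curve crosses 0 near its middle.

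Mitochondrial genes showed no common shift in the nuclear list. Of 76 nuclear oxidative phosphorylation genes, 10 were called higher and 14 lower (median log2 0.00), and with library totals 39 higher and 0 lower. The share of all tested genes in the main fit was 16.1% each way. Ndufc2, a subunit of complex I, was at 98.5, 90.3, 89.9 and 86.8 CPM in CD34- cells and 119, 115, 106 and 114 CPM in CD34+ cells (log2 0.31, SE 0.05, adjusted p = 4.40e-04). Of 13 mRNAs of the mitochondrial genome, 6 were called higher and none lower (median log2 0.11). The largest change was that of mt-Co1, a subunit of cytochrome c oxidase, at 1717, 1471, 1502 and 1547 CPM in CD34- cells and 2040.01, 1837, 1867 and 2067 CPM in CD34+ cells (log2 0.32, SE 0.06, adjusted p = 0.00101). Mitochondrial mRNA made up 1.05 to 1.16% of UMIs in CD34- and 1.28 to 1.45% in CD34+ libraries, and the part of RNA quality in this difference was not tested.

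In the tricarboxylic acid cycle list 3 of 20 genes were called higher and 2 lower (median log2 0.01), against 8 and 1 with library totals. Cs, citrate synthase, the entry enzyme, was lower at 64.9, 61.8, 70.1 and 69.1 CPM in CD34- cells and 50.7, 51.6, 54.3 and 49.5 CPM in CD34+ cells (log2 -0.37, SE 0.04, adjusted p = 2.05e-05). In the glycolysis list 6 of 27 were called higher and 7 lower (median log2 -0.08), against 9 and 4 with library totals and 6 and 11 with mouse as a block. All tested genes had 16.1% called each way in the main fit. Slc2a3, a glucose transporter, was at 148, 152, 175 and 171 CPM in CD34- cells and 85.1, 94.5, 94.1 and 78.1 CPM in CD34+ cells (log2 -0.88, SE 0.08, adjusted p = 3.15e-06). Hk2, a hexokinase, fell 1.65-fold. Ldhb, the lactate dehydrogenase subunit that favours pyruvate, was higher at 8.82, 9.58, 7.93 and 7.17 CPM in CD34- cells and 18.1, 16.02, 16.4 and 16.5 CPM in CD34+ cells (log2 1.00, SE 0.09, adjusted p = 1.78e-06).

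Polyamine metabolism was of interest because the study concerned N1-AcSpd. Of 22 tested genes, 6 were called higher and 8 lower (median log2 -0.08), beside 16.1% each way over all genes. Of the synthesis genes, Odc1, Srm and Sms were called lower and Amd1 was not called. Odc1, ornithine decarboxylase, the first enzyme of the pathway, was at 54.2, 72.8, 62.9 and 78.1 CPM in CD34- cells and 45.8, 47.02, 44.9 and 43.02 CPM in CD34+ cells (log2 -0.57, SE 0.09, adjusted p = 3.43e-04), and Srm, spermidine synthase, was at 46.6, 47.1, 42.3 and 42.4 CPM in CD34- cells and 31.01, 34.01, 32.7 and 27.6 CPM in CD34+ cells (log2 -0.51, SE 0.07, adjusted p = 1.13e-04). Catabolic genes were divided. Sat1, the acetyltransferase that makes N1-AcSpd, was at 123, 101, 123 and 102 CPM in CD34- cells and 73.8, 66.5, 75.4 and 59.2 CPM in CD34+ cells (log2 -0.71, SE 0.12, adjusted p = 5.47e-04), and Smox, spermine oxidase, fell 1.77-fold. Paox, which oxidises acetylated polyamines, was higher at 9.33, 9.39, 9.49 and 8.21 CPM in CD34- cells and 11.04, 11.96, 11.9 and 10.8 CPM in CD34+ cells (log2 0.33, SE 0.08, adjusted p = 0.00686). Oaz2, an antizyme that directs ornithine decarboxylase to degradation, rose 1.53-fold, and Slc3a2, a transporter subunit linked to polyamine export, 1.33-fold.

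In the interferon and antimicrobial list 5 of 26 genes were called higher and 11 lower (median log2 -0.22). The median relative to all genes was -0.25 and depended on the libraries used. It was -0.40, -0.14 and -0.16 without the CD34+ library of mouse 1, 2 or 4, -0.42 and -0.16 without mouse 1 or 4, -0.10 with untreated libraries only, -0.16 with these and mouse as a block, and -0.42 with filterByExpr. The β-defensin genes Defb14 and Defb4 were low, at 3.06 ± 0.547 and 3.09 ± 0.495 CPM in CD34- cells and 0.356 ± 0.119 and 0.394 ± 0.0689 CPM in CD34+ cells (SD, n = 4), and fell 8.51-fold and 7.75-fold. S100a8, the partner of S100a9, was at 56.8, 43.8, 85.6 and 55.5 CPM in CD34- cells and 14.7, 10.2, 16.7 and 9.92 CPM in CD34+ cells (log2 -2.23, SE 0.30, adjusted p = 7.52e-05). Il33, an alarmin cytokine, fell 5.23-fold. Lcn2, the siderophore-binding lipocalin 2, was higher at 4.04, 3.45, 3.55 and 1.49 CPM in CD34- cells and 12.1, 6.75, 15.7 and 7.09 CPM in CD34+ cells (log2 1.73, SE 0.33, adjusted p = 0.00112), though its CD34+ libraries varied more than 2-fold among mice.

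Immediate early and dissociation response genes differed little as a group, with 2 of 23 called higher and 6 lower (median log2 -0.09). Over all genes 16.1% were called each way. Fosl1, a member of the AP-1 family, was at 9.12, 9.58, 10.8 and 9.02 CPM in CD34- cells and 4.04, 4.66, 4.34 and 2.78 CPM in CD34+ cells (log2 -1.28, SE 0.18, adjusted p = 1.12e-04), and Egr1 was higher at 24.95, 25.7, 21.01 and 22.2 CPM in CD34- cells and 33.5, 36.5, 31.99 and 38.1 CPM in CD34+ cells (log2 0.58, SE 0.10, adjusted p = 6.89e-04).

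Markers of other cells that a skin culture could hold differed widely in level. Of 9 fibroblast genes 4 could be tested and 2 were called lower (1 with mouse as a block), and their summed level was 2.84 to 12.2 CPM in CD34- and 0.873 to 2.80 CPM in CD34+ libraries. Most of it was Vim, at 2.37, 3.83, 9.62 and 1.58 CPM in CD34- cells and 0.626, 1.92, 0.813 and 0.411 CPM in CD34+ cells. The groups overlapped for Vim, and its call (log2 -2.20, adjusted p = 0.0128) was lost without the CD34- library of mouse 3 (log2 -1.45), without mouse 1 (log2 -2.26) and without mouse 3 (log2 -1.39). The melanocyte list summed to 29.7 to 31.0 and 32.1 to 36.1 CPM, with Mitf called higher at 1.22-fold and 3 tested members not called. The immune list summed to 15.3 to 18.6 and 16.0 to 18.7 CPM, with 1 of 4 tested genes called lower (0 with library totals). The Merkel and simple epithelial list summed to 1.08 to 2.55 and 0.455 to 1.04 CPM, with its tested member, Krt18, called lower.

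The endothelial list was at 0.128 to 0.473 CPM in CD34- and 0.379 to 0.873 CPM in CD34+ libraries without Pecam1. Pecam1 itself was at 1865, 1989, 2055 and 2038 CPM in CD34- cells and 1786, 1851, 1868 and 1762 CPM in CD34+ cells (log2 -0.13, adjusted p = 0.00953), and was not called without mouse 4 (log2 -0.10) or with library totals (log2 -0.01). Its level stood alone among endothelial genes, and reads shared with other genes were not examined. The sebaceous list summed to 1456 to 2022 and 427.8 to 547.9 CPM, with 3 of 5 tested genes called lower. Fabp5, a fatty acid binding protein that the epidermis also expresses, carried most of it, at 1482, 1319, 1822 and 1899 CPM in CD34- cells and 347, 329, 431 and 316 CPM in CD34+ cells (log2 -2.20, SE 0.17, adjusted p = 8.40e-07). Of 3 tested hair shaft and inner root sheath genes 1 was called higher and 1 lower. The part of any of these cells in the differences above was not tested.

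The most abundant transcripts were shared by the fractions. In CD34- cells the first 10 by mean CPM included Krt14, Sprr2a1, Sprr2a2 and Sprr2a3, beside Mir124-2hg, Gm20388, Gm35585, Gm43652, A430010J10Rik and AW822252. In CD34+ cells mt-Co3 and Gm28437 also entered the first 10. Several of these share reads, as the overlapping Gm35585 and Gm43652 did with 4166 CPM each in CD34- cells, so their levels are uncertain. Of all tested genes, 7332 had another gene within 10% of their counts in each of the 8 libraries, and 1855 of them overlapped that gene in the annotation.

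Between the same fractions after N1-AcSpd, 6347 of 19049 genes (33.3%) were called. Of the 30 genes named by rule for their large untreated changes, 29 were called in the same direction. Tenm4 was the exception. Of the 161 genes given here with values and called in untreated cells, 157 were also called in treated cells in the same direction, and Tenm4, Lce1j, Bmp2 and Mitf were not called there. These genes were chosen with results of these data known, and both comparisons come from the same mice and the same fit. This is therefore no independent check, and the same share over all untreated calls is not given here. Bmp2 was at log2 -0.57 in treated cells (adjusted p = 0.437), beside -1.88 untreated. Sprr2a2 and Sprr2a3, not called in untreated cells (log2 -0.13 and -0.14), were called higher in CD34+ cells after N1-AcSpd (log2 0.28 and 0.28, adjusted p = 0.0207 and 0.0188). Sprr2a1, which overlaps Sprr2a2, was not called after N1-AcSpd and had the other sign (log2 -0.75, SE 1.20, adjusted p = 0.716). The counts of these near-identical copies are uncertain, so a change with treatment cannot be read from them. The log2 difference between the fractions of treated cells was 4.03 for Cd34, 2.35 for Lhx2, 3.31 for Krt15 and 3.44 for Postn, beside 3.97, 2.98, 3.35 and 3.37 untreated. For Sprr1a and Klk7 it was -2.68 and -3.02, beside -2.61 and -2.91, and for Top2a 1.07 beside 0.83. When the treated effect was tested against the untreated effect, edgeR called 0 of 19049 genes, and 799 had p under 0.05 before adjustment (unadjusted p). The same test by DESeq2 gave 57 calls, and edgeR with mouse blocked again gave 0. Among the 30 genes the unadjusted p was under 0.05 for 1, Pip. In this edgeR test the unadjusted p was 0.0475 for Bmp2, 0.00411 for Sprr2a2, 0.00336 for Sprr2a3 and 0.719 for Sprr2a1. It was under 0.05 for further genes named here, among them Barx2 (0.0100), Sprr2b (0.0103), Nfatc1 (0.0126) and Cdkn2c (0.0235). None of these was called after adjustment.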

How the data were processed

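The authors separated reads by sample barcode with FLEXBAR, mapped the second read of each pair to mm10 with kallisto (version 0.45.0 per the submitters' processing notes), assigned tags with BEDTools and counted unique UMIs per gene in R. The annotation release and the use of strand are not given in the sources used here. The deposited values are these raw counts, without normalization. The 156050 empty cells were read as 0, and of 32989 identifiers 94 were not in GENCODE M21, which gave symbols and positions. A read over several genes can be counted for each.

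Testing used the quasi-likelihood F test of edgeR 4.0.16 (R 4.3.3, TMM scaling, 1 mean per group, two-sided) on genes averaging 5 or more counts over 16 libraries, with Benjamini-Hochberg adjustment over 19049 genes and calls at 0.05. The fold change is CD34+ over CD34-, and the SE is its size divided by the square root of F. DESeq2 1.42.0 was an alternative, as were other scalings and filters, thinning, and leaving out libraries or mice. The procedure was tested on simulated data.

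Pairing by mouse comes from the labels. Over all tested genes, deviations of same-mouse libraries from their group means correlated at -0.00 to 0.06 (4 pairs). This does not describe single genes, in which the mice can go together more closely. The SEs and p-values given are those of the fit without mouse unless another fit is named. Libraries of 1 group differed beyond sampling noise (chi-square per degree of freedom 26.0 to 42.6), so none was a copy.

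Named genes were the 15 largest changes each way among genes called with and without mouse as a block, at a mean of 10 CPM or more, with at least 1 UMI in each library, groups not overlapping, the same sign in 4 mice and no gene within 10% of their counts, besides the 10 most abundant transcripts of each fraction and members of the gene lists. Members, lists and tests were chosen with earlier results of these data known. Limits from counts cover counting error only. Some genes are not reported here.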

Additional observations from a re-analysis of the deposited data

Results flagged for a closer look

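In each gene named with values, the highest and the lowest of the 4 libraries of a group were compared with the others, 338 groups in all, and 19 had a library apart by Dixon's criterion. Chance flags about 1 in 20 groups. For Cd200, mouse 3 was lowest among CD34+ libraries at 4.23 CPM, with the others at 5.86 to 6.14 CPM. For Tenm4, mouse 2 was highest among CD34- libraries at 87.0 CPM, with the others at 14.7 to 15.7 CPM. The CD34- library of mouse 3 was the highest of its group for Lce3e at 28.8 CPM (others 14.8 to 17.1), Lce3d at 50.8 CPM (others 25.7 to 28.7), Lce3f at 58.2 CPM (others 31.5 to 32.7), Crct1 at 70.3 CPM (others 39.9 to 44.1) and Asprv1 at 57.4 CPM (others 34.7 to 37.8). For Krt1, mouse 3 was highest among CD34+ libraries at 0.380 CPM, with the others at 0.206 to 0.228 CPM. For Krt10, mouse 2 was lowest among CD34+ libraries at 7.90 CPM, with the others at 9.22 to 9.45 CPM. The CD34- library of mouse 2 was the lowest of its group for Sprr2b at 174 CPM (others 205 to 209), Col17a1 at 338 CPM (others 355 to 356) and Notch3 at 0.958 CPM (others 1.42 to 1.47). For Bmp2, mouse 4 was highest among CD34+ libraries at 0.154 CPM, with the others at 0.108 to 0.114 CPM. For Tgfb1, mouse 1 was lowest among CD34- libraries at 2.62 CPM, with the others at 3.52 to 3.58 CPM. The CD34- library of mouse 4 was the lowest of its group for Igfbp2 at 1.71 CPM (others 2.56 to 2.68) and Paox at 8.21 CPM (others 9.33 to 9.49). For Eif6, mouse 2 was highest among CD34+ libraries at 182 CPM, with the others at 167 to 169 CPM. For Nfix, mouse 3 was lowest among CD34- libraries at 9.27 CPM, with the others at 11.7 to 11.8 CPM. For Runx1, mouse 1 was highest among CD34- libraries at 10.2 CPM, with the others at 9.36 to 9.46 CPM.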

How the results depend on the processing

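The 6123 calls became 6119 with DESeq2 size factors, 6621 with library totals, 6148 with filterByExpr, 5294 with no filter beyond 1 count, 5450 with untreated libraries only, 5930 with DESeq2 and 5492 after thinning to the smallest library. With mouse as a replicate block there were 6484 calls (3229 higher, 3255 lower), and 5291 with the block and untreated libraries only. The block ended no call of a gene named with values except that of Lce1j. Library totals gave 4862 higher and 1759 lower. A log2 change over 0.5 left 2913 calls (1597 higher, 1316 lower). Leaving out genes with near-identical counts left 3346 (1995 higher, 1351 lower), with fewer genes tested, and 5414 where only overlapping pairs were left out, an alternative added after seeing the data. Without 1 library or 1 mouse there were 4501 to 5786 calls (2185 to 2785 higher, 2316 to 3003 lower). The test of treated against untreated effects called 0 with edgeR, with and without the block, and 57 with DESeq2. The block and DESeq2 were added here after seeing the data, and the cause of the difference was not tested.

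For the 30 genes chosen by rule, 621 of 630 values kept direction and call, and the other 9 were lost calls of Tenm4. The rule itself required a call with the block and groups that do not overlap, so this is no independent check. Reversed values were those of Sox21, at -0.018 with the block, -0.036 with the block and untreated libraries only and -0.18 after thinning, with -0.19 to 0.22 on leaving out libraries or mice, and of Krt5, at 0.018 with library totals. Neither was called. Tcf7l1 was called with the block and untreated libraries only (log2 0.52) and Sprr2b with untreated libraries only (log2 -0.23). The median of the cyclin list relative to all genes changed sign, from -0.19 to 0.05 over the alternatives, as did those near 0 of the oxidative phosphorylation, tricarboxylic acid cycle, melanocyte and immune lists. The fibroblast median of -1.78 was -0.9995 without the CD34- library of mouse 3 and -1.11 without mouse 3. Leaving out a library or a mouse also moved by over 1.5 times the small relative medians of the BMP (0.12 to 0.21 without mouse 4), Notch, EGF, basal, glycolysis, immediate early and hair shaft lists, with no change of sign. Genes below 1 CPM rest on few molecules.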

Other observations

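Genes between 1 and 10 CPM held larger changes than those named by rule. They were taken by the same rule at this lower level, after their values were seen. Serpina3n, a serine protease inhibitor, was at 0.0860, 0.511, 0.563 and 0.316 CPM in CD34- cells and 9.67, 5.98, 7.81 and 6.42 CPM in CD34+ cells (log2 4.34, SE 0.41, adjusted p = 3.17e-06). Gfra1, the co-receptor of the neurotrophic factor GDNF, was at 0.258, 0.128, 0.303 and 0.451 CPM in CD34- cells and 3.81, 3.62, 3.04 and 3.80 CPM in CD34+ cells (log2 3.59, SE 0.26, adjusted p = 5.84e-07), and Scrg1, a small secreted protein, rose 12.4-fold. Serpina3n had the widest relative spread among CD34- libraries, and in all 3 genes the fractions were far apart. Ptn, the heparin-binding growth factor pleiotrophin, was at 1.89, 1.02, 1.13 and 0.857 CPM in CD34- cells and 10.3, 5.49, 8.68 and 7.66 CPM in CD34+ cells (log2 2.70, SE 0.29, adjusted p = 1.06e-05). Cyp4b1, a cytochrome P450, rose 6.91-fold.

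Among the decreases at this level, Spink12, a Kazal-type protease inhibitor, was at 1.59, 1.72, 2.77 and 2.48 CPM in CD34- cells and 0.171, 0.110, 0.163 and 0.154 CPM in CD34+ cells (log2 -3.79, SE 0.28, adjusted p = 6.85e-07). Il1f6, the cytokine IL-36α, was at 2.15, 2.04, 3.47 and 2.48 CPM in CD34- cells and 0.285, 0.274, 0.434 and 0.308 CPM in CD34+ cells (log2 -2.94, SE 0.54, adjusted p = 8.90e-04). Gsdma, the gasdermin of differentiating keratinocytes, fell 7.36-fold, and Sdr9c7, a dehydrogenase of barrier lipid synthesis, 7.38-fold. The rule that chose these 9 genes required the same direction in 4 of 4 mice and groups that do not overlap.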
